A study of Homo sapiens with 6 samples.

Results

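The miR-26 family was examined in Huh7 cells, a human hepatoma cell line, with and without exogenous hsa_circ_0098181, a circular RNA whose host gene is SOX5. The family was taken by name as hsa-miR-26a-5p, hsa-miR-26b-5p, hsa-miR-26a-2-3p and hsa-miR-26b-3p, and all 4 were found among the 2588 mature miRNAs of the expression table. The precursors MIR26A1, MIR26A2 and MIR26B carry the family, and the remaining arm, hsa-miR-26a-1-3p, lies outside this choice and is given beside it. The study compared 3 samples transfected with the plasmid carrying hsa_circ_0098181 (overexpression) and 3 with the control plasmid, a PLC5-CIR carrier in each case. Both groups shared the cell line and the Lipofectamine 2000 transfection and were harvested after 48 h. Transfection was transient, so the values are those of the whole culture, with and without plasmid. The labels give no separate culture or day for a sample, so the spread between samples of a group may be technical.

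miRNAs are short RNAs that guide Argonaute proteins to matching sites in mRNAs, chiefly through the seed, which is bases 2 to 8 from the 5′ end. Each precursor hairpin holds a 5p and a 3p arm, of which the guide strand is retained and the passenger strand is mostly degraded. The miR-26 guides are the 5p arms. They are known to be lower in hepatocellular carcinoma than in the surrounding liver, to restrain the G1/S cyclins CCND2 and CCNE2, and to target EZH2, the catalytic subunit of the Polycomb repressive complex that methylates histone H3. Delivery of miR-26a is known to slow MYC-driven liver tumors in mice.

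The mature sequences were taken from RefSeq (GRCh38.p14), where all 4 members were matched by name. They are shown because the seed sorts the members into groups and because the guides are nearly identical, which bears on how reads can be assigned. Capitals mark the seed, and each sequence is written 5′ to 3′.

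hsa-miR-26a-5p: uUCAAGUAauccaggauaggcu
hsa-miR-26b-5p: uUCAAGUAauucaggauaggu
hsa-miR-26a-2-3p: cCUAUUCUugauuacuuguuuc
hsa-miR-26a-1-3p: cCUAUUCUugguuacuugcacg
hsa-miR-26b-3p: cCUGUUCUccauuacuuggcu
hsa-miR-1297: uUCAAGUAauucaggug
hsa-miR-4465: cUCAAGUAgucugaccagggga

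Both guides share the seed UCAAGUA. With positions counted from 1 at the 5′ end, hsa-miR-26a-5p and hsa-miR-26b-5p were identical over the first 10 bases, and over the 21 positions compared they differed by C11U and C21U (miR-26a base first). Both 3p arms of miR-26a share the seed CUAUUCU and differ from each other at 5 of 22 positions, while hsa-miR-26b-3p has the seed CUGUUCU. Reads cut short of position 11 cannot separate the guides. How the authors assigned such reads is not given in the sources used here, so the split between the guides is uncertain to that extent. Of the 2370 mature names with a RefSeq sequence, 4 carried the guide seed, namely both guides, hsa-miR-1297 and hsa-miR-4465.

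The precursors lie in introns of the CTDSP genes, which encode small phosphatases that act on the C-terminal domain of RNA polymerase II and on the retinoblastoma protein. The hairpins are shown because the guide of miR-26a has the same sequence in both of its precursors, so that the 3p arms alone tell these precursors apart. Capitals mark both mature arms.

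MIR26A1: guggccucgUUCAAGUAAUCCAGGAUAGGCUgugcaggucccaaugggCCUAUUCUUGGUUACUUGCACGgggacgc
MIR26A2: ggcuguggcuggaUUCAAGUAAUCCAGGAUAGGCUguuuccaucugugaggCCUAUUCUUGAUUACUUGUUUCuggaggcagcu
MIR26B: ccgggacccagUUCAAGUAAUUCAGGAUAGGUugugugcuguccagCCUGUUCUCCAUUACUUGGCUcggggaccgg

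MIR26A1 lies at chr3:37969404-37969480 on the plus strand (GRCh38), in intron 5 of CTDSPL, whose annotated transcript CTDSPL-201 has 8 exons in GENCODE release 29. MIR26A2 lies at chr12:57824609-57824692 on the minus strand, in intron 5 of CTDSP2 (CTDSP2-201, 8 exons). MIR26B lies at chr2:218402646-218402722 on the plus strand, in intron 4 of CTDSP1 (CTDSP1-201, 7 exons). Each precursor has the strand of its host. The introns were 3524, 2026 and 629 bases long, respectively. The host mRNAs were not analysed here.

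The libraries held 7144798 to 10786295 counts, and 552 miRNAs passed the filter on low counts, including all 4 members. Of 5 hepatocyte markers (miR-122-5p, miR-192-5p, miR-194-5p, miR-148a-3p and miR-885-5p), which summed to 403397 to 435141 TPM over the 6 libraries, miR-122-5p made up most with 306227 to 338897 TPM. By contrast, miR-885-5p was at 13.5 to 20.2 TPM, below the neuron marker miR-9-5p with 96.2 to 146 TPM. The 5 blood cell markers (miR-451a, miR-223-3p, miR-142-5p, miR-142-3p and miR-150-5p) summed to 13.3 to 19.1 TPM. Of 3 endothelial and stromal markers, miR-126-3p was at 3053 to 3271 TPM and miR-143-3p and miR-145-5p were at most 96.2 and 4.91 TPM. The muscle markers miR-1-3p and miR-133a-3p summed to 1.45 to 2.13 TPM, and the neuron markers miR-124-3p and miR-9-5p to 98.6 to 149 TPM. The table holds mature miRNAs, so the circular RNA itself was not measured in it. Control replicate 3 stood apart from the other controls. Taken over the 152 miRNAs of at least 100 CPM on average, it was 0.21 log2 units away from each of the other controls (median absolute difference), which were 0.0492 apart. From overexpression replicates 1 to 3 it was 0.121, 0.191 and 0.158 away, so it lay nearer to each of these than to either control.

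The guides were among the most abundant miRNAs of these cells, and hsa-miR-26b-5p was about 3 times as abundant as hsa-miR-26a-5p. By mean share of the counts, hsa-miR-26b-5p ranked 7 and hsa-miR-26a-5p ranked 18 of all miRNAs. The TPM values, which are counts per total of the library without a correction for length, were 28670, 28463 and 29804 for hsa-miR-26b-5p in overexpression replicates 1 to 3. They were 31518, 29743 and 26437 in control replicates 1 to 3. The control samples therefore enclosed all overexpression samples, with control replicate 3 lowest. The level was 28979 ± 722 TPM (SD, n = 3) with hsa_circ_0098181 and 29233 ± 2579 TPM (SD, n = 3) with the control plasmid.

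hsa-miR-26a-5p, which sums the product of MIR26A1 and MIR26A2, was found at 9387, 8521 and 9868 TPM in overexpression replicates 1 to 3. In control replicates 1 to 3 it was at 9935, 9457 and 9851 TPM. The groups overlapped, and overexpression replicate 2 was the lowest sample. The means were 9259 ± 683 TPM (SD, n = 3) and 9748 ± 255 TPM (SD, n = 3), respectively. Both guides together held 3.63% to 4.15% of the counts of a library, of which hsa-miR-26b-5p made up 72.9% to 77.0%.

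The passenger strands were rare. hsa-miR-26a-2-3p, the 3p arm of MIR26A2, was at 63.0, 69.3 and 70.5 TPM in overexpression replicates 1 to 3 and at 80.8, 77.4 and 60.5 TPM in control replicates 1 to 3. These rest on 432 to 871 counts per library. The control samples again enclosed the overexpression samples.

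hsa-miR-26b-3p, the 3p arm of MIR26B, was at 44.4, 47.2 and 55.7 TPM in overexpression replicates 1 to 3 and at 60.1, 48.9 and 37.6 TPM in control replicates 1 to 3. These rest on 269 to 648 counts. In both passenger strands the highest library was control replicate 1 and the lowest was control replicate 3, so the spread of the controls exceeded that of the overexpression samples. The SD of hsa-miR-26b-3p was 11.2 TPM in the controls and 5.91 TPM with hsa_circ_0098181 (n = 3 each).

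The order of the 5p arms was not that of the 3p arms. hsa-miR-26b-5p was above hsa-miR-26a-5p in 6 of 6 libraries, with a ratio of miR-26a-5p to miR-26b-5p of 0.299 to 0.373. By contrast, hsa-miR-26b-3p was below hsa-miR-26a-2-3p in 6 of 6 libraries, with a ratio of 0.623 to 0.791. The ranges of hsa-miR-26a-1-3p and hsa-miR-26b-3p overlapped in each group, so these neighbours in the order did not differ beyond their spread. Read yield can differ between sequences during library preparation, so ratios between miRNAs are ratios of reads.

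MIR26B was strongly one-sided. The 5p arm exceeded the 3p arm 524-fold to 701-fold over the 6 libraries, so that 0.142% to 0.190% of the reads of this precursor came from the 3p arm. For comparison, 157 pairs of arms with matching names had at least 1000 counts over all libraries, and the more abundant arm exceeded the other by a median of 42.0-fold. Pooled over the libraries, miR-26b stood at rank 32 of these pairs with 588-fold. For miR-26a, both 3p arms together made up 1.10% to 1.41% of the reads of both precursors. Of these 3p reads, 53.0% to 62.5% came from MIR26A2.

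The comparison of the groups asks whether the levels of the miR-26 family differed in the presence of the circular RNA, which the study examined as a sponge of miRNAs. No member passed the test. Counts entered the quasi-likelihood test of edgeR after scaling by TMM factors, which correct for library composition. After TMM scaling, hsa-miR-26b-5p was at 28776, 30920 and 30819 CPM in the overexpression libraries and at 31373, 28829 and 24304 CPM in the control libraries. The overexpression mean was 30172 ± 1210 CPM and the control mean 28169 ± 3580 CPM (SD, n = 3 each). This gave a log2 fold change of 0.099 ± 0.086 (standard error), with an adjusted p of 0.698 by edgeR. Its 95% confidence interval was -0.087 to 0.29, or -5.85% to 21.9% in relative level.

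For hsa-miR-26a-5p, the TMM-scaled mean was 9628 ± 506 CPM in the overexpression group and 9371 ± 452 CPM in the control group (SD, n = 3 each). This gave a log2 fold change of 0.039 ± 0.074 (standard error), with an adjusted p of 0.840 by edgeR. The 95% confidence interval was -0.12 to 0.20, or -8.05% to 14.8% in relative level. Of the 4 members, this guide had the narrowest interval. Its TPM mean was lower and its TMM-scaled mean higher in the overexpression group, and this difference in sign came with the scaling. When scaled by library size alone, hsa-miR-26a-5p had a log2 fold change of -0.074, and the 552 miRNAs tested had a median of -0.11, compared with 0.0038 with TMM factors. Relative to the median of all miRNAs, hsa-miR-26a-5p was 0.035 above with TMM factors and 0.037 above with the library size alone. Other scaling factors move all miRNAs by nearly the same amount, so the likeness of these distances was fixed in advance.

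The passenger strands gave wider intervals. hsa-miR-26a-2-3p had a log2 fold change of -0.00031 ± 0.14 (standard error), an interval of -0.30 to 0.30 and an adjusted p of 0.999 by edgeR. For hsa-miR-26b-3p these were 0.11 ± 0.17 (standard error), -0.26 to 0.47 and 0.808 by edgeR, which allows a change of up to 38.8% upward. Thus 0 of 4 members had an adjusted p under 0.05, where the percentage of all 552 tested miRNAs was 0%. At an unadjusted p under 0.05, 0 of 4 members and 9.06% of all miRNAs (24 higher and 26 lower) were found. DESeq2 and limma also called 0 miRNAs after adjustment. The groups did not overlap after TMM scaling for 0 of 4 members and for 15.4% of all miRNAs.

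Without control replicate 3, the log2 fold change was -0.0034 for hsa-miR-26a-5p, -0.015 for hsa-miR-26b-5p, -0.16 for hsa-miR-26a-2-3p and -0.089 for hsa-miR-26b-3p. All 4 were thus below 0, and the lowest of their adjusted p-values (edgeR) was 0.395. In that fit 9.91% of 565 miRNAs had an adjusted p under 0.05, and 0 of the 4 members were among them. The part of this library in the direction of the members was not tested further.

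**Figure D1:**
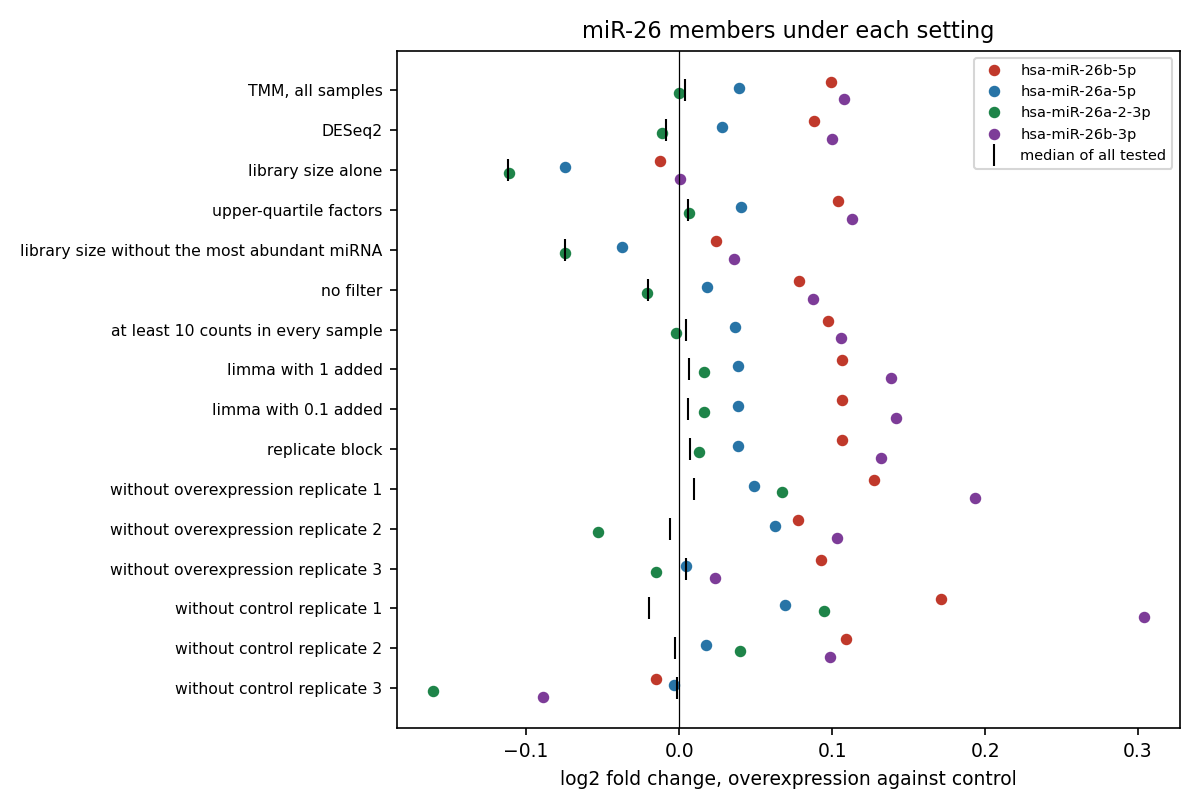
Log2 fold change of each member (horizontal axis, overexpression against control) under the reported setting and each alternative, with the median of all tested miRNAs as a black mark. With the library size alone the members moved down together with the median (-0.11), and without control replicate 3 all 4 members lay below 0.

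**Figure D2:**
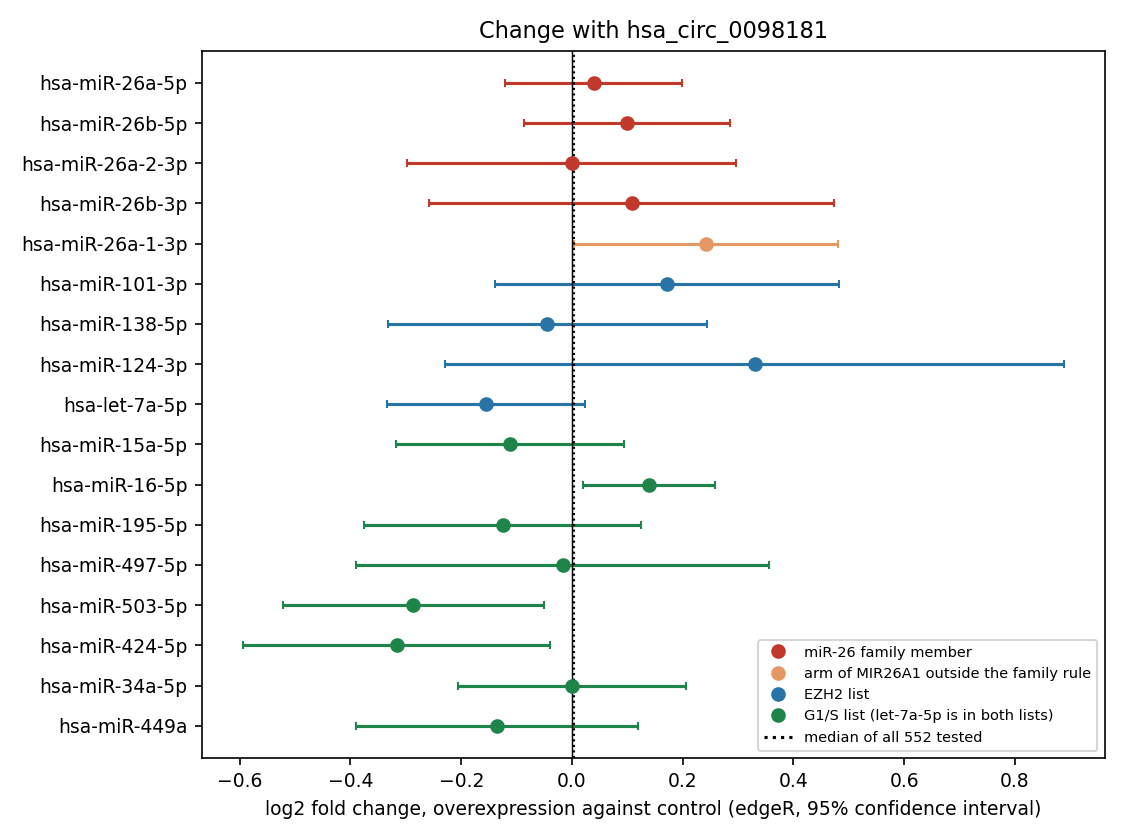
Log2 fold change from edgeR (horizontal axis, overexpression against control) with its 95% confidence interval for the 4 members, hsa-miR-26a-1-3p and the tested miRNAs of the EZH2 and G1/S lists. The intervals of all 4 members include 0, and the dotted line marks the median of all 552 tested miRNAs (0.0038).

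Ratios between members within a library do not depend on the library size or its composition. The log2 ratio of hsa-miR-26a-5p to hsa-miR-26b-5p was -1.61, -1.74 and -1.59 in overexpression replicates 1 to 3. It was -1.67, -1.65 and -1.42 in control replicates 1 to 3. The difference of the means was -0.068 (two-sided exact permutation test, p = 0.6, adjusted p = 0.9 over the 4 ratios compared, n = 3 each), and 0.1 is the smallest p that this test can give with groups of 3. Control replicate 3 was the highest sample for this ratio, and without it the difference was 0.011.

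The arm ratio of MIR26B, hsa-miR-26b-5p to hsa-miR-26b-3p, was 9.21 ± 0.138 on the log2 scale (SD, n = 3) with hsa_circ_0098181 and 9.24 ± 0.21 (SD, n = 3) in the controls. The ratio of hsa-miR-26a-5p to hsa-miR-26a-2-3p was 7.10 ± 0.141 and 7.07 ± 0.237 (SD, n = 3 each), respectively. These differed by -0.036 and 0.022, less than the spread between replicates (exact permutation test, p = 0.9 for each, adjusted p = 0.9). The ratio of the 3p arms, hsa-miR-26b-3p to hsa-miR-26a-2-3p, was -0.47 ± 0.113 and -0.59 ± 0.143 (SD, n = 3 each), a difference of 0.13 (exact permutation test, p = 0.3, adjusted p = 0.9). Without control replicate 3, the differences were 0.068 for the arm ratio of MIR26B, 0.16 for hsa-miR-26a-5p to hsa-miR-26a-2-3p and 0.080 for the 3p arms. None of the 4 ratios separated the groups.

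hsa-miR-26a-1-3p, the 3p arm of MIR26A1, was at 55.9, 52.9 and 55.4 TPM in overexpression replicates 1 to 3 and at 54.1, 46.4 and 49.3 TPM in control replicates 1 to 3. In TPM the groups overlapped. After TMM scaling, each overexpression sample was above each control sample, where the groups did not overlap for 15.4% of all tested miRNAs. The means were 56.9 ± 0.733 CPM with hsa_circ_0098181 and 48.0 ± 4.99 CPM in the controls (SD, n = 3 each). This gave a log2 fold change of 0.24 ± 0.11 (standard error). The p from edgeR was 0.0463 before and 0.532 after adjustment (adjusted p), so it did not pass the threshold. An unadjusted p under 0.05 was found for 9.06% of all tested miRNAs. With the library size alone, the median of all tested miRNAs was -0.11. Scaled in this way, hsa-miR-26a-1-3p had a log2 fold change of 0.13 and a p from edgeR of 0.272 before adjustment. Without control replicate 3 these were 0.18 and 0.0717, and DESeq2 gave 0.23 and 0.069.

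The miRNAs that share the guide seed contributed few reads. hsa-miR-1297 had 0 counts in every library, which allows a level of up to 0.278 to 0.420 TPM depending on the library, for counting error only. For hsa-miR-4465 the overexpression libraries held 7, 12 and 7 counts and the control libraries 9, 3 and 6 counts. It fell under the filter on low counts, so this depth cannot show whether the groups differ. Among the names matched to a RefSeq sequence (2281 of 2588), the reads with the seed UCAAGUA were thus nearly all of hsa-miR-26b-5p and hsa-miR-26a-5p.

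Other miRNAs described as targeting EZH2 were compared as a list of 5 (miR-101-3p, miR-138-5p, miR-124-3p, miR-214-3p and let-7a-5p). hsa-miR-214-3p had 3 counts in all and was not tested. Of the other 4, 2 had a log2 fold change above 0 and 2 below, 0 passed the threshold, and the median was 0.064, compared with 0.0038 over all tested miRNAs. This median was 0.0013 without control replicate 3, 0.011 without overexpression replicate 2 and -0.051 with the library size alone. hsa-miR-101-3p, known to repress EZH2, was at 1767 ± 92.7 TPM (SD, n = 3) with hsa_circ_0098181 and 1693 ± 354 TPM (SD, n = 3) in the controls, with a log2 fold change of 0.17 (adjusted p = 0.698 from edgeR) that turned to -0.032 without control replicate 3. In TPM it was below both miR-26 guides in each group. hsa-let-7a-5p, a member of the let-7 family, had a log2 fold change of -0.15 (adjusted p = 0.581 from edgeR).

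Other miRNAs described as targeting G1/S cyclins and their kinases formed a list of 9 (let-7a-5p, miR-15a-5p, miR-16-5p, miR-195-5p, miR-497-5p, miR-503-5p, miR-424-5p, miR-34a-5p and miR-449a). All 9 were tested, 2 had a log2 fold change above 0 and 7 below, and 0 had an adjusted p under 0.05. The median was -0.13, and -0.18 without control replicate 3. At an unadjusted p under 0.05 there were 3 of 9, where the share of all tested miRNAs was 9.06%, namely hsa-miR-16-5p with 0.14, hsa-miR-503-5p with -0.29 and hsa-miR-424-5p with -0.32, and edgeR gave all of them an adjusted p of 0.421. hsa-miR-16-5p was at 0.022 with the library size alone (unadjusted p = 0.721 from edgeR), and its unadjusted p was 0.165 with DESeq2 and 0.0553 with the replicate block in edgeR. With that block hsa-miR-424-5p had an unadjusted p of 0.0555 from edgeR. Without control replicate 3, hsa-miR-503-5p (-0.35, adjusted p = 0.0141 from edgeR) and hsa-miR-424-5p (-0.48, adjusted p = 1.9e-05 from edgeR) passed the threshold. In that fit 9.91% of 565 miRNAs passed. With any other single sample left out, neither passed, and the adjusted p from edgeR was 0.545 to 0.847 and 0.603 to 0.847, respectively. The list median moved to -0.24 with the library size alone. In this list 2 of 9 were above 0 and in the miR-26 family 3 of 4, where all tested miRNAs had 281 of 552. These counts stand side by side, and their difference was not tested. All 4 members were below 0 without control replicate 3.

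Across the 6 libraries, the TMM-scaled level of hsa-miR-26b-5p was most like that of hsa-miR-340-5p (Pearson's r = 0.974, Spearman's rho = 0.886), hsa-miR-126-5p (r = 0.963, rho = 0.886) and hsa-miR-429 (r = 0.962, rho = 1), among 151 other miRNAs of at least 100 CPM on average. Each of these was lowest in control replicate 3, as hsa-miR-26b-5p was. For hsa-miR-26a-5p the highest values of r were lower, 0.786 for hsa-miR-122-3p, 0.778 for hsa-miR-483-3p and 0.742 for hsa-miR-374b-5p. The guides were correlated with each other at r = 0.653 and rho = 0.6. These are descriptions over 6 samples that share the scaling factor of each library, and no test was made.

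The letters complementary to the guide seed, TACTTGA, were searched on the sense strand of annotated transcripts (GENCODE release 29). They were found 0 times in CTDSP1-201, CTDSP2-201 and CTDSPL-201, the host transcripts, and 0 times in SOX5-202, a linear transcript of the gene of hsa_circ_0098181. EZH2-201 held 1 match, which begins at base 250 of its 3′UTR of 261 bases, and is shown with the match in capitals because EZH2 is the target named above.

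EZH2 site: ataaagaaTACTTGAacttg

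The stretch shown, which contains the match in capitals, lies at chr7:148807385-148807404 on the minus strand (GRCh38). Among 707 genes with a 3′UTR within 10% of this length, 2.4% held the letters, and among the genes with 3′UTRs of like length to CTDSP1, CTDSP2 and CTDSPL these were 10.7%, 25% and 24.2%. A match or its absence describes these letters in these annotated transcripts, and target levels were not measured in these libraries.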

How the data were processed

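The 6 miRNA-seq libraries of Huh7 cells were grouped by their sample titles. The authors deposited counts, the number of reads per mature miRNA and sample, without normalization, and TPM values, which equal the CPM recomputed from the counts to within 0.00303. The aligner, the miRNA annotation and the handling of shared reads are not given in the sources used here for these counts. The submitters' processing notes name TopHat2, TopHat and Bowtie with no role, and hg38. Reads assigned with mismatches would move counts between hsa-miR-26a-5p and hsa-miR-26b-5p.

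miRNAs were kept by edgeR's filterByExpr (minimum count 10, minimum total 15). TMM factors, from 0.921 to 1.09, were computed, and the quasi-likelihood test (R 4.3.3, edgeR 4.0.16) was fitted on the whole table with a single term for the group. Tests were two-sided, and p-values of all 552 miRNAs were adjusted after Benjamini-Hochberg, with a threshold of 0.05. The script was tested on simulated data. Ratios used counts with 0.5 added and an exact permutation test. Libraries held between 7144798 and 10786295 counts (median 8379124). The upper limit on a miRNA at 0 counts is a matter of counting error alone. No library was a copy of another, since chi-square divided by its degrees of freedom lay between 18.2 and 157 for libraries of one group. Alternatives were DESeq2 1.42.0, limma 3.58.1 on log2 of CPM with 1 or 0.1 added, other scalings and filters, the replicate block and leaving out each sample.

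The members and lists were chosen with earlier results of these data known. Named were the members, the other miR-26a arm, miRNAs of the same seed, both lists, the cell type markers and, for each guide, the 3 miRNAs most correlated with it. Of 2588 names in the table, 2281 were matched to a RefSeq sequence.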

Additional observations from a re-analysis of the deposited data

How the results depend on the processing

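No member had an adjusted p under 0.05 under any alternative, with a smallest value of 0.395 (hsa-miR-26a-2-3p without control replicate 3). The direction of each member changed under at least 1 alternative. hsa-miR-26a-5p (0.039 with TMM factors) was -0.0743 when scaled by library size alone and -0.0372 when the most abundant miRNA was left out of that size, and hsa-miR-26b-5p (0.099) was -0.0126 with the library size alone. The median of all miRNAs was -0.11 and -0.075 under these scalings. hsa-miR-26a-2-3p (-0.00031) was 0.0065 with upper-quartile factors, 0.0161 and 0.0165 with limma and 1 or 0.1 added, and 0.0128 with the replicate block. With single samples omitted in turn, hsa-miR-26a-5p was between -0.0034 and 0.0689, hsa-miR-26b-5p between -0.0154 and 0.1715, hsa-miR-26a-2-3p between -0.1611 and 0.0945, and hsa-miR-26b-3p between -0.089 and 0.304. hsa-miR-101-3p turned to -0.0319 without control replicate 3 and was up to 0.2913 without another sample. The causes were not tested.

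Adjusted calls numbered 0 in the reported fit (50 unadjusted), 3 with the library size alone, 6 without a filter and 0 to 56 with a sample left out, the 56 being without control replicate 3. The unadjusted number was 27 to 119 with a sample left out, with 27 without overexpression replicate 2 or control replicate 2. DESeq2 gave 0 (41 unadjusted), and limma with 1 added gave 0 (52 unadjusted). Of the unadjusted calls, TMM factors gave 24 higher and 26 lower, whereas library size alone gave 1 and 69.

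With an added count of 5, the 4 ratios moved by less than the spread between replicates. The replicate block leaves a difference of group means unchanged by construction. Omitting a single sample of 3 cannot move a group mean by as much as the SD of that group. These last checks therefore could not show a dependence of the ratios. The reported fit did not pair samples by their numbers. Over 152 miRNAs, deviations from the group means correlated between equal numbers at -0.025, 0.145 and 0.24. Unequal numbers were not compared, so these values cannot show whether samples were paired. With the replicate block, hsa-miR-26b-5p had a value of 0.106 and 42 miRNAs had an unadjusted p under 0.05 (0 adjusted). Among the miR-26 arms and the miRNAs of the same seed, depth was lowest for hsa-miR-1297 and hsa-miR-4465 (0 to 12 counts per library). The 3p members rest on 269 to 871 counts per library.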

Other observations

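The 3p arms of miR-26a, which alone separate its precursors, were compared with each other after their values were seen. The log2 ratio of hsa-miR-26a-1-3p to hsa-miR-26a-2-3p took the values -0.17, -0.39 and -0.35 across the overexpression libraries, against -0.58, -0.74 and -0.30 across the control libraries (replicates 1 to 3 in order). Control replicate 3 lay among the overexpression samples and the other controls lay below them. The difference of the means was 0.23 (two-sided exact permutation test, p = 0.3, n = 3 each, smallest possible p = 0.1), and the groups overlapped. Without control replicate 3 the difference was 0.35.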
